A study of Mus musculus with 8 samples.

Results

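Exposure to trichostatin A (TSA), an inhibitor of histone deacetylases, was compared with its absence over all 8 arrays of a mouse neurosphere study. The 4 arrays with TSA (groups TSA and AzaC/TSA) were set against the 4 without it (groups untreated and AzaC). Members were chosen by the treatment in the sample labels alone, and the whole series holds 8 arrays. Neurospheres are floating cultures of neural stem and progenitor cells. They were grown from forebrains of mouse embryos at embryonic day 14.5, each forebrain isolated separately. Every embryo carried a bcl2 transgene, so all 4 groups share it, and the labels do not give the promoter that drives it. Untreated cells received neither compound, the TSA group 150 nM TSA, the AzaC group 500 nM AzaC (5-aza-2'-deoxycytidine, which traps DNA methyltransferases), and the AzaC/TSA group both, each for 2 days. Each group had 2 arrays, 1 from each of 2 independent experiments, arrays are named by group and experiment, and p-values rest on the spread among these arrays.

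Histone deacetylases remove acetyl groups from lysines of histone tails and of many other proteins. TSA blocks the zinc-dependent enzymes of the family, but not the sirtuins, and acetylated histones then build up across the genome. In cultured cells such inhibitors are known for stopping the cell cycle and for switching on a recurrent set of genes, and neural progenitors exposed to them have been used to study neuronal differentiation.

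All arrays had the same trimmed mean signal of 200.1, and 53.1% to 58.3% of probe sets per array reached a signal of 50, the level used here as the filter. The leading principal component of the log2 signals carried 44.1% of the variance and separated the TSA arrays (-42.24 to -27.6) from the others (29.9 to 40.37). The next carried 20.1% and separated experiment 1 from experiment 2. The ratio of 5' to 3' signals of the actin control, a sign of RNA integrity, was 0.29 to 0.39 with TSA and 0.332 to 0.471 without it. For the Gapdh control it was 0.738 to 0.982 and 0.867 to 1.043. These ranges overlap, both sit lower with TSA, and their part in the differences below was not tested.

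The comparison asked which transcripts differ with TSA whether or not AzaC was present, and how small a difference the 4 arrays on each side resolve. Of 7987 probe sets tested with limma, 2082 (26.1%) passed an adjusted p of 0.05, 1021 higher (12.8%) and 1061 lower (13.3%) with TSA. Without the filter, when all 12422 probe sets were tested, 1279 passed. Taken as genes, each by its brightest probe set, 1686 of 6011 passed (28%), 839 higher (14%) and 847 lower (14.1%). Of these, 831 genes (13.8%) differed by less than 2-fold, 409 upward (6.8%) and 422 downward (7.02%). The smallest difference that passed was 0.37 on the log2 scale, and the median size in this moderate class was 0.73, with a median standard error of 0.173. The counts below for gene lists are read against these shares. The filter can admit a gene through 1 side alone. Scg2, Snap25 and Neurod1 entered through their TSA arrays, and Mki67 and Top2a through their arrays without TSA. Genes dim on all arrays are left out. In lists with many dim genes this can raise the shares and the size of the medians of those tested. All 73 genes lower by 2 to 3 on the log2 scale passed, as did all 57 higher by as much, against 387 of 839 lower and 376 of 779 higher by 0.5 to 1, and 35 of 1774 and 33 of 1666 for smaller differences. These are measured sizes, which also enter the test. The shares therefore do not give how often a true difference of that size is found. The 3 genes just inside the threshold were Wbp2 (-0.54, adjusted p = 0.0497), Clasrp (-1.09, 0.0497) and Prpsap2 (-0.58, 0.0498), and the 3 just outside were Ap1s1 (0.42, 0.05 after rounding), A430005L14Rik (-0.55, 0.0501) and Ndrg3 (0.76, 0.0501).

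**Figure D1:**
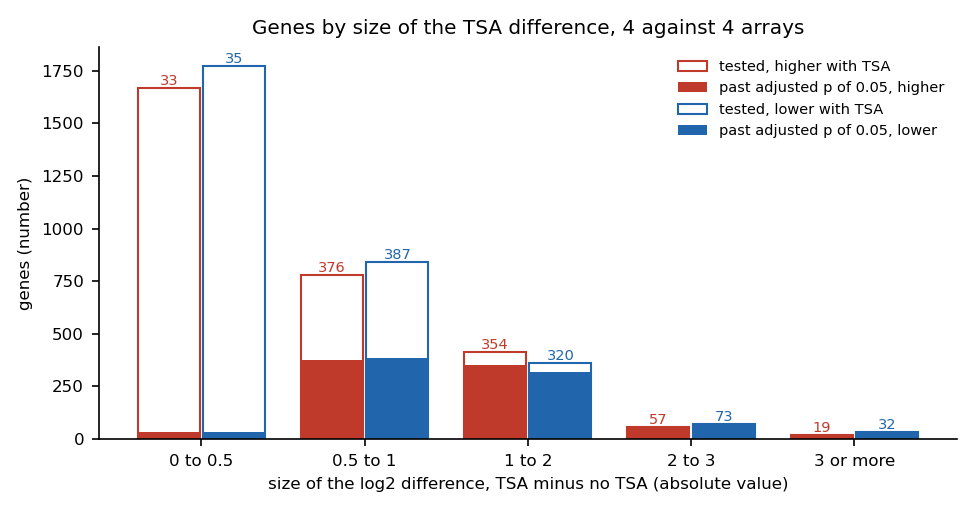
Number of genes (vertical axis) by size of the log2 difference, TSA minus no TSA (horizontal axis). Open bars are genes tested, filled bars and the printed numbers are genes past an adjusted p of 0.05, red higher and blue lower with TSA. The called share grows from 33 of 1666 genes in the smallest class upward to 376 of 779 at 0.5 to 1 and to all 19 at 3 or more.

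The moderate calls came from bright probe sets: their median signal was 460, against 186 for calls of 2-fold or more and 179 for all genes tested. None of the 831 had an array under the floor of 20, the signal to which lower values were raised, while 206 of the 855 larger calls (24.1%) did. In 572 of the 831 (68.8%) the 4 TSA arrays and the 4 others did not overlap, against 694 of 855 (81.2%) of the larger calls and 1519 of all 6011 genes (25.3%). The same fits with single group contrasts, at 2 arrays against 2, resolved fewer small differences. TSA against untreated gave 971 probe sets (12.2%), 163 of them under 2-fold (2.04%), and AzaC/TSA against AzaC gave 744 (9.32%), 121 under 2-fold (1.51%), where the 4 against 4 comparison gave 1014 under 2-fold (12.7%). These counts lean on single arrays. The 1014 became 602 without TSA 1, 630 without AzaC/TSA 2, 657 without AzaC 2, 666 without AzaC/TSA 1 and 669 without untreated 1. The 971 became 188 without TSA 2, 343 without TSA 1 and 373 without untreated 2. The 744 became 186 without AzaC 1, 217 without AzaC/TSA 1, 226 without AzaC/TSA 2, 256 without AzaC 2, 484 without TSA 2 and 485 without TSA 1. Without the experiment number as a block the 1014 became 532 and the 1021 higher probe sets 677.

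Genes that rose by less than 2-fold with the smallest p belonged to several compartments of the cell. In the signals that follow, values without TSA are in the order untreated 1, untreated 2, AzaC 1 and AzaC 2, and values with TSA in the order TSA 1, TSA 2, AzaC/TSA 1 and AzaC/TSA 2. Dync1h1, the heavy chain of the cytoplasmic dynein motor, had signals of 966, 886, 777 and 871 without TSA and 1766, 1811, 1545 and 1662 with it. All TSA arrays lay above all others, by 1.94-fold on average (log2 difference 0.96, SE 0.13, adjusted p = 0.000316). In the contrasts of 2 arrays against 2 its adjusted p was 0.0114 without AzaC and 0.0145 with it. Bsg, basigin, a membrane partner of lactate transporters, gave 2417, 2864, 2745 and 2655 without TSA and 5860.2, 5993, 5018 and 4474 with it. These groups did not overlap either (log2 difference 0.99, SE 0.13, adjusted p = 0.00033). The lysosomal membrane protein Lamp1 was among the brightest probe sets, with 6942, 6539, 7067 and 4504 without TSA and 12157, 11093, 12821 and 10139.7 with it (log2 difference 0.90, SE 0.13, adjusted p = 0.000633). AzaC 2 was the lowest of its 8 arrays, and the lowest TSA array still exceeded the highest array without TSA. Mapt, the microtubule protein tau, showed 313, 333, 440.1 and 464 without TSA and 582, 740.0, 859.7 and 863 with it (log2 difference 0.98, SE 0.14, adjusted p = 0.000645). Its AzaC arrays lay above the untreated ones and its AzaC/TSA arrays above the TSA ones, and the groups with and without TSA stayed apart. The other 4 of the 8 were Dad1, a subunit of oligosaccharyltransferase (0.92), Pdcd4, an inhibitor of translation initiation (0.94), Tmem9b (0.97) and the ubiquitin ligase Znrf2 (0.97). Znrf2 overlapped between the groups, since its experiment 2 arrays without TSA (679 and 860.0) lay near the experiment 1 arrays with TSA (721 and 633), and without the block it did not pass (adjusted p = 0.116).

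Genes that fell by less than 2-fold with the smallest p included parts of chromatin, mitochondria and the nucleolus. Hint1, a histidine triad nucleotide hydrolase, had signals of 3168, 4325, 3414 and 4209 without TSA and 1799, 1909, 2029 and 2144 with it (log2 difference -0.93, SE 0.13, adjusted p = 0.000348). All 4 TSA arrays were below all others. Banf1, which links chromatin to the nuclear envelope, gave 2546, 2461, 2407 and 2109 without TSA and 1204, 1349.5, 1197 and 1309.6 with it (log2 difference -0.91, SE 0.13, adjusted p = 0.000437), with little spread in either group. Bmi1, a subunit of Polycomb repressive complex 1, gave 1574, 1514, 1712 and 1175 without TSA and 802, 571, 848 and 778 with it (2-fold lower, adjusted p = 0.000785), with TSA 2 the lowest array. Atp5o, a stalk subunit of mitochondrial ATP synthase, gave 4005, 3380.3, 3672 and 2879.5 without TSA and 1848, 1311, 1929 and 1947 with it (log2 difference -0.99, SE 0.15, adjusted p = 0.000662), and here too TSA 2 was the lowest. Ncl, the nucleolar protein nucleolin, fell by 0.96 on the log2 scale, and its AzaC 2 and AzaC/TSA 2 arrays were the highest of their groups (6346 and 3232). The remaining members of the 8 were Mrpl18, a mitochondrial ribosomal protein (-0.94), Sumo3, a small protein modifier (-0.97), and the ubiquitin ligase Nedd4 (2-fold).

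**Figure D2:**
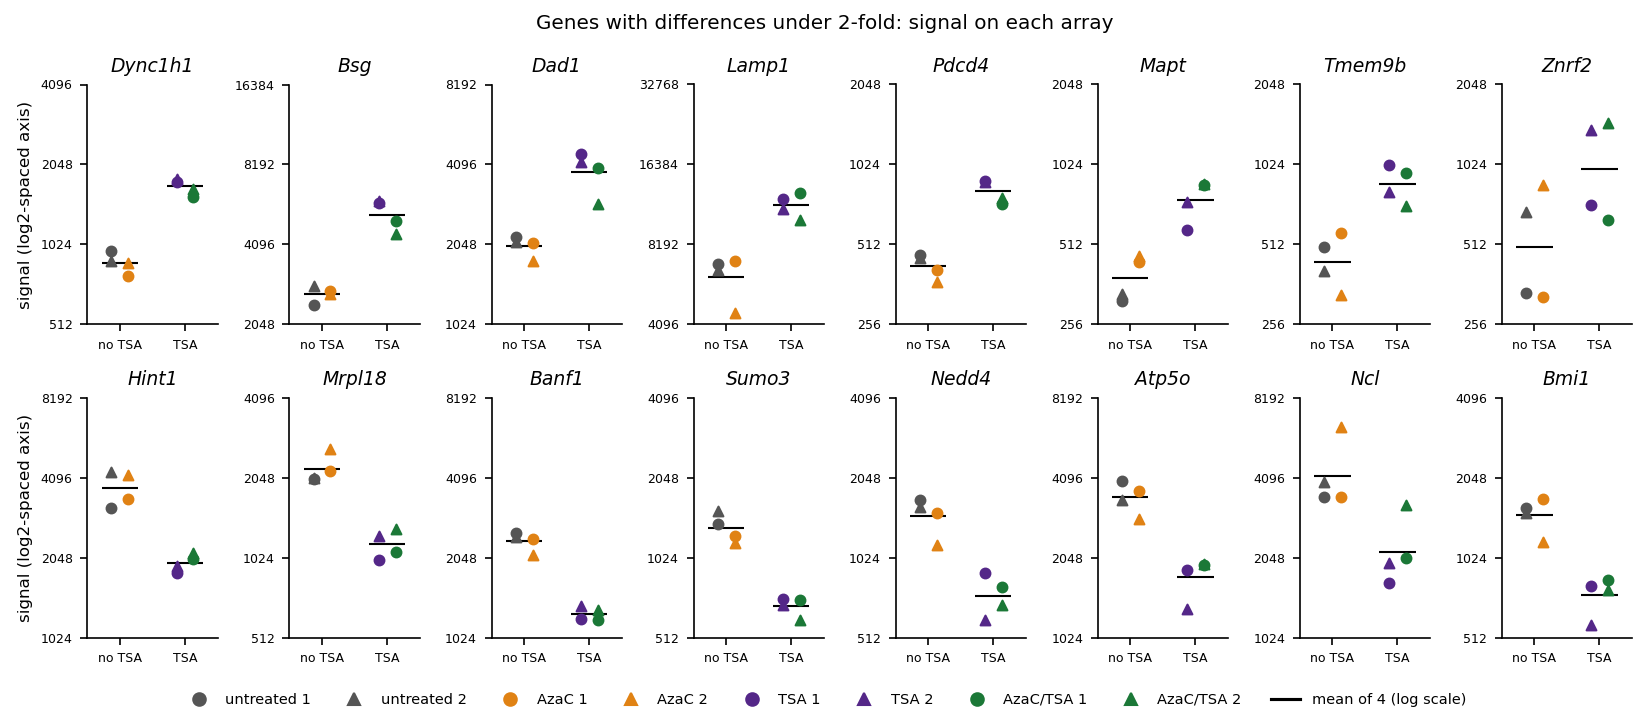
Signal on each array (vertical axis, log2-spaced) for the 8 genes of smallest p that rose (top row) and that fell (bottom row) by less than 2-fold; circles are experiment 1, triangles experiment 2, colours the 4 groups, and bars the mean of 4 arrays on the log scale. In 15 of the 16 panels the TSA arrays and the others do not overlap; the exception is Znrf2.

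Among genes with 1 symbol, the largest rises and falls set the scale. A probe set with no gene name rose by more, at least 83.2-fold (log2 difference 6.38, SE 0.71, adjusted p = 9.79e-05). Its size differed between the experiments, as given below. Clu, the secreted chaperone clusterin, rose from 79.6, 74.8, 71.8 and 97.9 without TSA to 1638, 2049, 1056 and 1022 with it. That is 17.1-fold (log2 difference 4.10, SE 0.22, adjusted p = 9.68e-07), and the 2 TSA arrays exceeded the 2 AzaC/TSA arrays. Snap25, a membrane fusion protein of synapses, was at or below 31.8 on the 4 arrays without TSA and between 252 and 615 with it, at least 16.3-fold higher (log2 difference 4.03, SE 0.28, adjusted p = 4.13e-06). Igf2, an imprinted fetal growth factor, went from 47.0, 113, 29.9 and 25.9 to 959, 473, 652 and 355. It was 12.6-fold higher (log2 difference 3.66, SE 0.36, adjusted p = 4.05e-05), more so in experiment 1 (4.40) than in experiment 2 (2.92) in value, although this difference did not pass (adjusted p = 0.424). Rnase4, a secreted ribonuclease (at least 3.79), the membrane-binding annexin Anxa2 (at least 3.74) and the aldo-keto reductase Akr1b8 (3.73) were of the same order. Without the filter on low values, which adds dim probe sets to the test, Anxa2 did not pass (adjusted p = 0.0663).

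**Figure D3:**
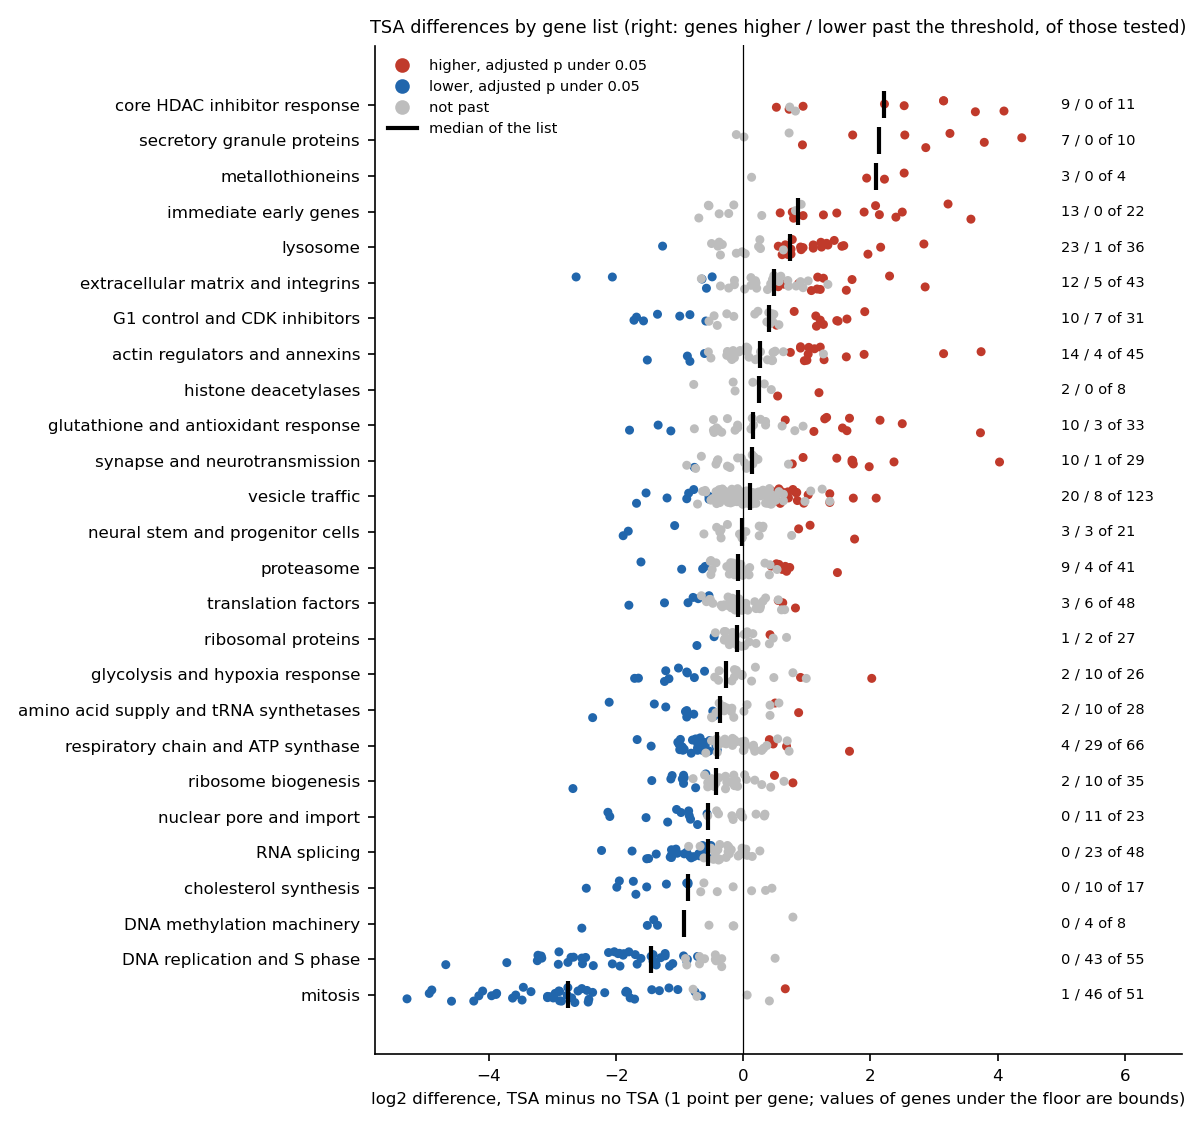
Log2 difference, TSA minus no TSA (horizontal axis), of every tested member of 26 gene lists, 1 point per gene, red and blue where past an adjusted p of 0.05 upward and downward, grey otherwise; bars are list medians and the numbers at the right are genes higher and lower of those tested. Medians run from -2.76 for mitosis to 2.22 for the recurrent inhibitor response.

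Genes of cell division made up most of the 8 largest falls. Of 51 tested mitosis genes 46 fell and 1 rose, the cohesin subunit Smc3 (0.66), and the list median was -2.76, where 14.1% of all 6011 genes fell and their median was -0.02. Mki67, a nuclear protein of cycling cells, dropped from 883, 1226, 787 and 808 to 1.1, 28.4, 25.5 and 17.8. It was at least 39.3-fold lower (log2 difference -5.29, SE 0.22, adjusted p = 3.16e-07), and 2 of the 4 TSA arrays lay under the floor. Cdc20, which switches on the ubiquitin ligase that starts anaphase, went from 1728, 2726, 2235 and 2299.9 to 79.0, 96.0, 87.8 and 109, well above the floor on every array. This gave a 24.1-fold fall (log2 difference -4.59, SE 0.16, adjusted p = 6.59e-08) with nearly equal values in experiment 1 (-4.56) and experiment 2 (-4.62). Top2a, the topoisomerase that untangles chromosomes (-4.94 or lower), the kinesins Kif20a (-4.90 or lower) and Kif11 (-4.10 or lower), Aurkb, a kinase of chromosome segregation (-4.24 or lower), and Cdk1, the kinase of mitotic entry (-4.16), fell as well. The members that did not pass on their brightest probe set were Zwint (0.41), Incenp (-0.79), Ndc80 (-0.73) and Cdc16 (0.06). A second probe set of Incenp, a partner of Aurkb, was lower (-2.75, adjusted p = 0.000289), and a second one of Zwint, a kinetochore protein, was higher (0.51, adjusted p = 0.0287). The pooled comparison also resolved smaller falls in the list, such as Pttg1, securin (-0.76), and the checkpoint protein Bub3 (-0.66). The RNA came from whole cultures, so fewer cells of a type and less RNA per cell cannot be told apart.

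Promoters of many cell division genes are known to carry a cell cycle homology element, TTTGAA, near CCAAT boxes. Of the 46 genes that fell, 37 had a promoter in the RefSeq table (GRCm38.p6, 250 bases before to 50 after the start of the gene). TTTGAA was found on either strand in 26 of the 37 (70.3%), in 14.5% of the 4866 tested genes with a promoter and in 17.9% of all 32851 promoters. CCAAT was found in 28 (75.7%), against 43.3% and 37.4%. A match is a description of the letters, not a binding site. The promoters of Cdc20 (chr4:118437294-118437593, minus strand) and Mki67 (chr7:135716330-135716629, minus strand) are shown as those of smallest p in the list that hold an element searched for. Capitals mark TTTGAA and CCAAT on either strand, and the matches do not overlap here.
Cdc20: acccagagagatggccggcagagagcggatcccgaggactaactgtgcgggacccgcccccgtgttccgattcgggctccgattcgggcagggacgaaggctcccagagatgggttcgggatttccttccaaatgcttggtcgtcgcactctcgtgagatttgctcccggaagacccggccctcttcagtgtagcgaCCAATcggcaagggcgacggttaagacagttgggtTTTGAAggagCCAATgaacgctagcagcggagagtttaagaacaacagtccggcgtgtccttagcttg
Mki67: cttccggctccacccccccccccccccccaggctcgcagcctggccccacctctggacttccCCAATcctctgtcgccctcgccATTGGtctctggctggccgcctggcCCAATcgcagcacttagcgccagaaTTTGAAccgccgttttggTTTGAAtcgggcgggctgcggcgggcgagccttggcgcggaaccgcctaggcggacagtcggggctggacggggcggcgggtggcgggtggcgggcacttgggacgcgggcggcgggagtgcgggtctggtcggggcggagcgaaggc

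Genes that copy DNA in S phase fell in 43 of 55 tested cases and rose in 0 (median -1.45). Rrm2, a subunit of ribonucleotide reductase, had signals of 676, 804, 706 and 958 without TSA and 80.7, 64.3, 94.7 and 111 with it. It was 9.07-fold lower (log2 difference -3.18, SE 0.19, adjusted p = 1.96e-06), with no overlap between the groups. Pcna, the sliding clamp of DNA polymerases, showed 1849, 3208, 1852 and 3135 without TSA and 528, 800.3, 389 and 944 with it (log2 difference -1.95, SE 0.14, adjusted p = 5.83e-06). Experiment 2 was brighter than experiment 1 on both sides, and the difference was alike in both (-2.03 and -1.87). The other strong falls included Pclaf, a partner of that clamp (-4.68 or lower), Mcm5, a subunit of the replicative helicase (-3.72), thymidine kinase Tk1 (-3.24) and the licensing factor Cdc6 (-3.23 or lower). All subunits of that helicase on the list that passed, Mcm2 (-2.06), Mcm3 (-3.17), Mcm4 (-2.71), Mcm5 and Mcm7 (-2.12), fell at least 2-fold. Members of the origin recognition complex split, with Orc6 lower (-1.67), while Orc1 (-0.89), Orc2 (-0.91), Orc4 (0.50) and Orc5 (-0.42) did not pass.

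Regulators of the step from G1 into S phase moved in both directions: 10 of 31 rose and 7 fell (median 0.40), and without the filter 6 rose. Among cyclins of G1, Ccnd1 fell (-1.72), while Ccnd2 rose from 707, 696, 887 and 729 to 1966, 931, 2333 and 1809 (log2 difference 1.15, SE 0.18, adjusted p = 0.000971) and Ccnd3 rose by 0.80. Of the inhibitors of cyclin-dependent kinases, Cdkn2a rose from 69.6, 91.9, 76.4 and 81.4 to 215, 322, 129 and 276 without overlap (log2 difference 1.49, SE 0.24, adjusted p = 0.00106). Cdkn2b (at least 1.63) and Cdkn1c (at least 1.21) rose too, and Cdkn2c fell (2-fold). Cdkn1a, p21, the inhibitor most often linked with deacetylase inhibition, gave 1225, 806, 1372 and 1074 without TSA and 1782, 1030.2, 2237 and 1508 with it on its brightest probe set. It was 1.44-fold higher (log2 difference 0.52, SE 0.13, adjusted p = 0.0136) and the groups overlapped, since TSA 2 lay below untreated 1, AzaC 1 and AzaC 2. Its call was lost without AzaC 1 (adjusted p = 0.0546), without TSA 1 (0.0569), without the intensity trend (0.0622) and without the block (0.152). A second Cdkn1a probe set, with 1121, 769.9, 1078 and 1002 without TSA and 2170.1, 1174, 2806 and 1254 with it, did not overlap between the groups (0.82, adjusted p = 0.00483). Cdkn1b, p27, did not pass (0.45, adjusted p = 0.28). The antiproliferative gene Btg1 (1.91) and the retinoblastoma gene Rb1 (1.14) rose, and its relative Rbl1 fell (-1.68). In the list of p53 targets and growth arrest genes 8 of 20 rose and 3 fell (median 0.55), among them Mdm2, the ligase that degrades p53 (1.35), Plk2, a kinase (0.85), and Phlda3 (1.18) upward and Gas5 (-1.19), Gas1 (-1.35) and Gas2 (-1.13) downward. Mdm2 did not pass without the filter (adjusted p = 0.0519).

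Of 14 listed histone deacetylases 8 were tested, of which 2 rose and 0 fell (median 0.24). The list includes sirtuins, which TSA does not block. Of the zinc-dependent members tested, which are the targets of TSA, Hdac6 alone passed. Hdac6, a deacetylase of tubulin and other cytoplasmic proteins, had signals of 262, 309.6, 248 and 329 without TSA and 833, 659, 755 and 439 with it. It was 2.29-fold higher on average (log2 difference 1.19, SE 0.21, adjusted p = 0.00188). All TSA arrays lay above all others, and AzaC/TSA 2 was the lowest of them. The difference was 1.64 in experiment 1 and 0.75 in experiment 2, and the limma interaction term did not pass (adjusted p = 0.393). The sirtuin Sirt2 was higher by 0.54 (adjusted p = 0.0335) with overlapping groups, and lost its call when any of untreated 1, untreated 2, AzaC 2, TSA 2, AzaC/TSA 1 and AzaC/TSA 2 was left out (adjusted p up to 0.109). Hdac1 did not pass, with 592, 564, 612 and 667 without TSA and 813, 992, 635 and 910.3 with it (log2 difference 0.44, SE 0.16, adjusted p = 0.0599), and passed with median centring (adjusted p = 0.047) and without AzaC/TSA 1 (0.0341). Hdac2 (-0.13), Hdac3 (0.33), Hdac5 (0.15), Hdac7 (-0.16) and the mitochondrial sirtuin Sirt3 (-0.78) did not pass. Of 15 tested subunits of deacetylase complexes 2 fell (13.3%) and 1 rose (6.67%), with a median of 0.13, where 14.1% of all genes fell and 14% rose. Mbd3, of the NuRD complex, fell from 631, 584, 669.7 and 579.7 to 252, 203, 257 and 217 (log2 difference -1.41, SE 0.15, adjusted p = 7.02e-05), with the 4 TSA arrays all under 260. The histone chaperone Rbbp4 fell (-0.71), but not without the filter (adjusted p = 0.0668). The scaffold Sin3a passed upward (0.53, adjusted p = 0.0381), a call lost when any 1 array other than AzaC 2 was left out (adjusted p up to 0.156 over all alternatives).

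Genes of DNA methylation, the process that AzaC inhibits, differed with TSA as well: 4 of 8 tested fell and 0 rose (median -0.94). Dnmt1, the maintenance methyltransferase, had signals of 536, 749.9, 664 and 649 without TSA and 252, 376, 188 and 229 with it. It was 2.56-fold lower (log2 difference -1.35, SE 0.19, adjusted p = 0.000416), and all TSA arrays were below all others. Uhrf1, which brings Dnmt1 to newly replicated DNA, fell more, from 344, 432, 413 and 789 to 78.8, 115, 48.5 and 96.4 (log2 difference -2.54, SE 0.25, adjusted p = 4.09e-05). The remodeller Hells also fell (-1.51 or lower). Uhrf1, Hells and Dnmt1 are known to be made mainly in dividing cells. The de novo methyltransferase Dnmt3a did not pass (-0.15). Of 8 tested histone genes H2ax, a variant that marks DNA breaks, fell from 1522, 1898, 1949.7 and 1508 to 314, 309, 307 and 244 (log2 difference -2.55, SE 0.16, adjusted p = 2.24e-06). The centromeric histone Cenpa (-2.46) and H2az1 (-1.38) fell, and the linker histone H1f2 rose (0.89). The fourth fall, of Macroh2a1 (-0.86), was lost without any 1 array other than untreated 1 and AzaC/TSA 1 (adjusted p up to 0.165 over all alternatives). Among 29 other chromatin regulators 8 fell and 3 rose: Cbx5, a heterochromatin protein (-1.93), the methyltransferase of Polycomb complex 2, Ezh2 (-1.26), and Trim28, a corepressor (-1.23), were lower, and Ezh1, the relative of Ezh2 (1.12), Kmt2a, a histone methyltransferase (0.97), and Phc2, a Polycomb subunit (0.85), were higher.

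The genes known as a recurrent response to deacetylase inhibitors rose in 9 of 11 tested cases and fell in 0 (median 2.22). Besides Clu these included Sat1, which acetylates spermidine and spermine, with signals of 387, 139, 456 and 246 without TSA and 2709, 2829, 2223 and 2228 with it. It was 8.9-fold higher (log2 difference 3.15, SE 0.26, adjusted p = 1.41e-05), and the spread among the TSA arrays was small. The actin-severing protein Gsn had 49.2, 1.5, 42.6 and 127 without TSA and 715, 93.9, 664 and 738 with it (at least 3.15, SE 0.54, adjusted p = 0.00159). TSA 2 lay below AzaC 2, so its groups overlapped, and without the filter Gsn did not pass (adjusted p = 0.0723). Txnip, an inhibitor of thioredoxin, rose by 3.65 on its brighter probe set and differed by -0.01 on the other. Klf4 (0.82) and Gadd45b (0.73) did not pass.

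Of 4 tested genes of the metallothionein list, 3 rose, all metallothioneins, small proteins that bind zinc and copper (list median 2.08). Mt2 was among the brightest probe sets, with 3684, 1377, 4918 and 2707 without TSA and 22234, 15023, 20068 and 11122 with it. It was 5.76-fold higher (log2 difference 2.53, SE 0.21, adjusted p = 1.2e-05), and the AzaC arrays exceeded the untreated arrays of the same experiment. Mt1 gave 5002, 2025, 5219 and 3497 without TSA and 21872, 17253, 18497 and 12381 with it (log2 difference 2.22, SE 0.19, adjusted p = 1.91e-05), the same order of arrays without TSA. Mt3 rose (1.94), but not without the filter (adjusted p = 0.118), and the zinc sensor of the family, Mtf1, did not pass (0.13). Metal response elements have the core TGCACNC or, in a variant, TGCGCNC, and both strands were searched. The former was found in the promoters of Mt1, Mt2 and Mt3, in 15.1% of tested genes with a promoter and in 12.6% of all promoters, and the variant in those of Mt1 and Mt2, against 31.2% and 15.4%. The promoters of Mt1 (chr8:94178839-94179138, plus strand) and Mt2 (chr8:94172368-94172667, plus strand) are shown as those of smallest p that hold a core, and capitals mark either core on either strand.
Mt1: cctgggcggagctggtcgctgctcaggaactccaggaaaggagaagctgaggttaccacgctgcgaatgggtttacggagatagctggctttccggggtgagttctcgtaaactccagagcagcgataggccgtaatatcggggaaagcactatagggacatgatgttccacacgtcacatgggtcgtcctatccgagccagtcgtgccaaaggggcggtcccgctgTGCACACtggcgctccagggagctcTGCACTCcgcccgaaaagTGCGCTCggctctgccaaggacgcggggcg
Mt2: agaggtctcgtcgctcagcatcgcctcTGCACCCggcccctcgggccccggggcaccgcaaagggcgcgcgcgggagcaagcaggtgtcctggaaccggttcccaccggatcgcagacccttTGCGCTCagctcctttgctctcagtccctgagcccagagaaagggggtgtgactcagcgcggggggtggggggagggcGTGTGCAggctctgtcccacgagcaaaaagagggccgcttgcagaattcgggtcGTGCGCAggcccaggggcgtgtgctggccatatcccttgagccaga

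Immediate early genes, which answer growth factors and stress within minutes to hours, rose in 13 of 22 tested cases and fell in 0 (median 0.86), and in 8 both without the block and without the filter. Fos, a subunit of the AP-1 factor, had signals of 64.9, 42.2, 65.6 and 81.6 without TSA and 581, 875, 877 and 665 with it. It was 11.9-fold higher after 2 days of TSA (log2 difference 3.58, SE 0.23, adjusted p = 2.66e-06), and no TSA array was near the others. Egr2 rose 9.29-fold (log2 difference 3.22, SE 0.25, adjusted p = 8.99e-06) and Egr1 5.28-fold (log2 difference 2.40, SE 0.22, adjusted p = 2.91e-05), both zinc finger factors. Junb (2.08), Ier2 (1.90) and, among the moderate rises, Jun (0.79) and Jund (0.58) were other members. Myc (-0.54), Nr4a1 (-0.70), Fosb (-0.15) and Atf3 (-0.23) did not pass. Among heat shock proteins and cytosolic chaperones 7 of 21 rose and 1 fell, the mitochondrial Hspa9 (-0.65), with the inducible Hspa1a (1.66) and Hspa1b (1.96) in front, while of 11 subunits of the chaperonin that folds actin and tubulin 3 fell and 0 rose, Cct3 (-0.92), Cct6a (-0.91) and Cct5 (-0.40), the last not without the block (adjusted p = 0.226) or any 1 array other than untreated 1 and TSA 1. For Hspa4 (0.68) the other 4 probe sets did not pass, and 1 of them lay in the other direction (-0.28).

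In the glutathione and antioxidant list 10 of 33 rose and 3 fell (median 0.16), and without the filter 6 rose. Gclc, the rate-limiting subunit of glutathione synthesis, had 223, 277, 164 and 232 without TSA and 591, 963, 573 and 746 with it (log2 difference 1.67, SE 0.16, adjusted p = 2.84e-05), with no overlap. Gstp1, a glutathione transferase, rose from 1607, 1476, 1841 and 894 to 5951, 12627, 5057 and 10515 (5.66-fold, adjusted p = 0.000124). The groups did not overlap, and with TSA both arrays of experiment 2 were above those of experiment 1. The oxidative stress factor Nfe2l2 (1.11), the quinone reductase Nqo1 (1.28), heme oxygenase Hmox1 (1.31), Srxn1 (2.15) and thioredoxin reductase Txnrd1 (0.66) were other members that rose, although second probe sets of Nqo1 (0.34) and Srxn1 (0.22) did not pass. Gstm1 (0.14) and Gss (0.35), of glutathione transfer and synthesis, did not pass. The peroxide-reducing protein Prdx2 fell from 3501, 4527, 3429 and 3356 to 1223, 1351, 1597 and 1679.7 (log2 difference -1.34, SE 0.15, adjusted p = 0.000105) and thioredoxin, Txn1, from 18086, 14074, 18563 and 12476 to 6822, 5892, 8784 and 7076 (log2 difference -1.14, SE 0.13, adjusted p = 0.000108). Neither gene's groups overlapped. The retinal dehydrogenase Aldh1a1 was the third gene that fell (-1.79). Its groups overlapped, since AzaC 2 (173.1) lay below TSA 1 (502.0) and AzaC/TSA 1 (921.5). A dimmer Aldh1a1 probe set did not pass (-0.42, adjusted p = 0.395). Of 21 genes of endoplasmic reticulum stress 2 rose and 4 fell (median 0.14), with the transcription factor Atf4 (-0.83), the chaperone Hsp90b1 (-0.39) and Herpud1 (-0.62) lower. Atf4 did not pass without the filter (adjusted p = 0.0586). Its partner Ddit3 was higher (1.04), a call lost without untreated 1, untreated 2, TSA 1 or TSA 2 (adjusted p up to 0.162 over all alternatives).

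Proteins of secretory granules, which store peptides in neurons and endocrine cells, rose in 7 of 10 tested cases and fell in 0 (median 2.13). The array held 13 genes of the list, and Scg2 and Resp18 passed the filter only through their TSA arrays. Scg2, secretogranin II, went from 24.3, 7.9, 11.6 and 16.2 to 342, 558, 281 and 675. It was at least 20.8-fold higher (log2 difference 4.38, SE 0.29, adjusted p = 2.85e-06), and 3 of the 4 arrays without TSA were under the floor. Chgb, chromogranin B, rose from 128, 38.6, 91.4 and 51.6 to 1627, 595, 1652 and 537 (log2 difference 3.79, SE 0.19, adjusted p = 6.94e-07). Experiment 1 was brighter than experiment 2 with and without TSA, and the difference was alike in both (3.92 and 3.66). Resp18, a granule protein, rose 9.54-fold (log2 difference 3.25, SE 0.23, adjusted p = 3.95e-06), Chga 7.3-fold (log2 difference 2.87, SE 0.27, adjusted p = 3.57e-05), and the convertase inhibitor Pcsk1n by 2.54. The peptide-processing enzymes Cpe (-0.11) and Pam (0.72) and the priming factor Cadps (0.01) did not pass. The cAMP response element TGACGTCA, which reads the same on both strands, was found in the promoters of Chgb and Scg2 among the 7 genes that rose (28.6%), in 3.49% of tested genes and 1.79% of all promoters. It was in 0 of 6 promoters of the synaptic genes that rose. The promoters of Chgb (chr2:132781392-132781691, plus strand) and Scg2 (chr1:79439977-79440276, minus strand) are shown with the element in capitals.
Chgb: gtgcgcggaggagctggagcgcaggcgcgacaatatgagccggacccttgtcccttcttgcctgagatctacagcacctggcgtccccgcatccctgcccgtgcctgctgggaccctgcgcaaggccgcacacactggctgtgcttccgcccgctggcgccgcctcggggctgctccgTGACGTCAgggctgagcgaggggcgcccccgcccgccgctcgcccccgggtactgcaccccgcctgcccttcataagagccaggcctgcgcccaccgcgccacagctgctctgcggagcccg
Scg2: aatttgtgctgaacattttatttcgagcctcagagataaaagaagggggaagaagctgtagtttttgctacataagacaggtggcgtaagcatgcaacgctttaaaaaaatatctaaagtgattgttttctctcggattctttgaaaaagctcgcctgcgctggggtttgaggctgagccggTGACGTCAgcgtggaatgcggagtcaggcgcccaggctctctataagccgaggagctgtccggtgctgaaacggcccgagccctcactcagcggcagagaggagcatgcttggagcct

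Synaptic genes rose in 10 of 29 tested cases and fell in 1, the kinase subunit Camk2b (-0.77), and the list median was 0.14. Without the filter 5 rose. The array held 45 genes of the list, and Snap25 and Calb2 were among the members that passed the filter only through their TSA arrays. Ncam1, a neural adhesion molecule, rose from 439, 819.6, 528 and 419.9 to 3879.9, 3352, 3168 and 1382 (log2 difference 2.37, SE 0.26, adjusted p = 9.56e-05), with AzaC/TSA 2 the lowest TSA array. Uchl1, a neuronal ubiquitin hydrolase (1.71), the calcium-binding Calb2 (1.98) and Stx1a, a partner of Snap25 (at least 1.73), were further members that rose. Among genes of the neuronal cytoskeleton and migration 6 of 14 rose and 1 fell (median 0.81). The array held 18 genes of that list, and Reln was among the members that passed the filter only through their TSA arrays. Crmp1, which helps steer axons, rose from 146, 123, 237 and 169 to 469, 571, 583 and 429.8 (log2 difference 1.63, SE 0.21, adjusted p = 0.000216), and the microtubule regulators Stmn2 (1.41), Stmn4 (0.95) and the secreted guide Reln (at least 2.52) rose beside Mapt, Reln not without the filter (adjusted p = 0.051). Tubb3, a tubulin much used as a neuronal marker, fell on its brighter probe set (log2 difference -0.82, SE 0.19, adjusted p = 0.00908) and rose on the other (1.18, SE 0.37, adjusted p = 0.0358). It was the only gene with probe sets called in opposite directions, and both probe sets are of the kind that can cross-hybridise with related genes, as are those of Chgb, Kif20a and Mrpl18. Dcx (0.78), Map2 (-0.59) and Gap43 (0.84) did not pass. Of 15 neuronal transcription factors 3 rose and 0 fell, the factors Neurod1 (at least 1.45), Sox4 (1.52) and Zic1 (0.66). Without the filter Sox4 (adjusted p = 0.0554) and Zic1 (0.0727) did not pass, nor Zic1 without untreated 1 or AzaC/TSA 1.

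Markers of neural stem and progenitor cells moved both ways, 3 of 21 up and 3 down, 14.3% each and so near the shares over all genes (median -0.02), and their summed signal was 20959 to 23384 without TSA and 12272 to 21801 with it. Fabp7, a lipid carrier of radial glia, accounted for much of that sum, with 9310.0, 10920.1, 10573 and 7830.1 without TSA and 2497, 1063, 5499 and 3036 with it (log2 difference -1.89, SE 0.30, adjusted p = 0.000941). Its groups did not overlap, and within them TSA 2 was far below AzaC/TSA 1. Without the filter Fabp7 did not pass (adjusted p = 0.0586). The intermediate filament Nes gave 2376, 2053, 2259 and 3003 without TSA and 1049, 1949.6, 2008 and 2921 with it and did not pass (log2 difference -0.37, SE 0.18, adjusted p = 0.175). Sox2, the pluripotency and stem cell factor, overlapped fully, with 3407, 3751, 3324 and 3119.9 without TSA and 3474, 2391, 4830.4 and 2819 with it (-0.06, 95% half-width 0.38). Of the other members past the threshold, the forebrain factor Pax6 (-1.08) and the growth factor Ptn (-1.81 or lower) fell, and Id1 (1.05), an inhibitor of differentiation factors, Prom1 (at least 1.75) and the matrix protein Tnc (0.87) rose. Ptn did not pass without the block (adjusted p = 0.136) or the filter (0.158), nor Prom1 without the filter (0.0523), and the Notch target Hes1 did not pass (0.25). Of 15 astrocyte genes 2 rose, Clu and Cst3 (0.64), and 3 fell, S100b (-1.29), Sparcl1 (-2.63) and Aldoc (-1.22), the last not past without the block (adjusted p = 0.236). Gfap, their defining filament, was at or under 66.7 on all 8 arrays and did not pass (0.26). In the oligodendrocyte lineage 1 of 7 passed, the pteridine reductase Qdpr (0.78), while Cnp and Mog were under the floor on all arrays.

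Markers of cells other than neural ones held few calls, and their levels differed by list. Fibroblast and meningeal genes summed to a signal of 8104 to 9490 without TSA and 6235 to 8788 with it, above the synaptic list without TSA (5366 to 7267), although Postn and Vtn were under the floor on all arrays. Such sums add 1 probe set per gene over lists of unlike size (19 and 45 genes on the array). They therefore do not measure the shares of cell types. Endothelial genes summed to 495 to 627 and 375 to 737, and muscle genes to 871 to 1954 and 1119 to 1258. For blood cells and their progenitors the summed signal was 686 to 1010 without TSA and 791 to 1058 with it. Of 10 tested 1 fell, the proliferation factor Myb (-1.54 or lower), and the common leukocyte antigen Ptprc was under the floor on all arrays, as was Itgam. Microglia and macrophage genes summed to 438 to 766 and 523 to 985. Of 5 tested 1 rose, Cd68, from 39.4, 53, 30.0 and 41.2 to 203, 425, 167 and 474 (log2 difference 2.84, SE 0.26, adjusted p = 2.46e-05), and Aif1 and Itgam were under the floor on all arrays. Cd68 is also a lysosomal protein. It passed the filter only through its TSA arrays, and the array held 18 genes of that list. Endothelial genes (1 of 4 higher, Flt1, 1.18), fibroblast and meningeal genes (2 of 13 higher, Col6a1, 1.09, and Dcn, at least 1.41) and muscle genes (1 of 11 higher, Tnni1, 0.87, and 1 lower) completed the markers. The muscle gene that fell was Pygm, glycogen phosphorylase, from 772, 176, 568 and 129 to 3.0, 23.4, 29.4 and 6.2 (-3.79 or lower). Experiment 1 was far brighter without TSA than experiment 2 in this gene. Flt1 and Dcn passed the filter only through their TSA arrays, and Myb and Pygm only through their arrays without TSA. The array held 24 genes of the blood list, 15 endothelial genes and 23 muscle genes. The part of these markers in the differences of other genes was not tested. Myb did not pass without untreated 2 (adjusted p = 0.0503) or AzaC 2 (0.0579). Tnni1 lost its call without AzaC 2 (adjusted p = 0.0558) or TSA 2 (0.057). Col6a1 did not pass without the filter (0.0731). Flt1 lost its call without AzaC 1 (adjusted p = 0.0515) or AzaC/TSA 1 (0.0824), and Dcn in each fit that left out an array other than AzaC 2 and AzaC/TSA 2 (up to 0.108).

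Lysosomal genes rose together: 23 of 36 passed upward and 1 downward, Gusb (-1.27), with a median of 0.74, and 11 of the 24 calls were under 2-fold. Over all genes 14% rose, and 13.8% passed with less than 2-fold. Ctsd, a protease of the lysosome lumen, had signals of 2128, 2054, 1829 and 1672 without TSA and 7751, 7562, 8387 and 6229 with it. It was 3.89-fold higher (log2 difference 1.96, SE 0.12, adjusted p = 2.26e-06), with little spread on either side. Atp6v0d1, a subunit of the proton pump, gave 955, 1055, 856 and 602 without TSA and 2451, 2921, 2097 and 2529 with it (log2 difference 1.55, SE 0.16, adjusted p = 5.64e-05), and the protease Ctsl gave 1154, 838, 937 and 635 without TSA and 2441, 2713, 2045 and 1616 with it (log2 difference 1.31, SE 0.15, adjusted p = 0.000105). Neither showed overlap. Among the smaller rises were the membrane proteins Lamp1 and Lamp2 (0.94), the pump subunits Atp6v1a (0.75) and Atp6v1h (0.55), the protease Tpp1 (0.91), ceramidase Asah1 (0.70) and the cholesterol carrier Npc2 (0.72). The members that did not pass included Npc1 (0.03), Smpd1 (-0.02), Hexa (0.63) and Ctsh (-0.50). Promoters of lysosomal genes are known to share the element TCACGTGA, the same on both strands. It was found in 4 of the 20 promoters of genes that rose (20%), those of Ctsd, Atp6v0d1, Ctsa and Atp6v1a, in 2.3% of tested genes and 0.974% of all promoters. The Ctsd promoter (chr7:142387778-142388077, minus strand) is shown with the element in capitals. It was chosen after its values were seen.
Ctsd: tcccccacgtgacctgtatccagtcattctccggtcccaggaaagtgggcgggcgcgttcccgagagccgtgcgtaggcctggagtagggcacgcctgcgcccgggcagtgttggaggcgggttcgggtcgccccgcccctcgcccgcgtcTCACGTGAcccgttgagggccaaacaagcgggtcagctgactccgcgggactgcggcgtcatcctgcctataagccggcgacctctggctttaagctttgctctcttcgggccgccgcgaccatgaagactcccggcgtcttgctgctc

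Cholesterol synthesis went down, with 10 of 17 genes lower and 0 higher (median -0.87). Idi1, an isomerase early in the pathway, had 1887, 2179.8, 1879 and 1208 without TSA and 294, 341, 301 and 327 with it (log2 difference -2.47, SE 0.18, adjusted p = 5.5e-06). Hmgcs1, the synthase that makes the precursor of mevalonate, gave 1489, 1912, 1820.3 and 989 without TSA and 541, 481, 521 and 349 with it (log2 difference -1.69, SE 0.19, adjusted p = 0.000104). In both genes AzaC 2 was the lowest array without TSA and still above every TSA array. Cyp51 (-1.99), Lss (-1.95), Fdps (-1.73) and, among smaller falls, Sqle (-0.87), Mvd (-0.89) and Fdft1 (-0.87) are further enzymes of the pathway. The sterol-sensing factor Srebf1 (-0.16) and the last enzyme, Dhcr7 (0.35), did not pass. Of the 10 genes that fell, 7 had a promoter in the table. All 7 hold CCAAT, and the sterol element TCACNCCAC was found in 1 (14.3%), Hmgcs1, against 1.58% of tested genes and 1.24% of all promoters. The promoter of Hmgcs1 (chr13:119690101-119690400, plus strand) is shown with both in capitals.
Hmgcs1: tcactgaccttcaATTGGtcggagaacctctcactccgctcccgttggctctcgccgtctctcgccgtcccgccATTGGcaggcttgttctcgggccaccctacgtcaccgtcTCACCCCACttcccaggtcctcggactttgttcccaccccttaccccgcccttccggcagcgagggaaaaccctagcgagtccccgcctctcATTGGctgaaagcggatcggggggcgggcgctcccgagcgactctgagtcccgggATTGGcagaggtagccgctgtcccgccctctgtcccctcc

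In the energy metabolism of the cell many small falls stood side by side. Of 66 tested genes of the respiratory chain and ATP synthase 29 were lower and 4 higher (median -0.41), and 27 of these 33 calls were under 2-fold. The falls touched complex I (Ndufs3, -1.03, Ndufb8, -1.01, and Ndufa9, -0.72), complex II (Sdha, -0.80, Sdhb, -0.60, and Sdhd, -0.64), complex III (Uqcrb, -1.67, and Uqcrc1, -0.72), cytochrome c (Cycs, -1.01) and ATP synthase (Atp5pb, 1.99-fold, Atp5o and Atp5a1, -0.54). Uqcrb, the largest fall, had signals of 3104, 2666, 2919.6 and 1879.9 without TSA and 701, 857, 1098 and 677 with it (log2 difference -1.67, SE 0.18, adjusted p = 8.43e-05). All TSA arrays were below all others. Cox6a1 (0.68), Cox7a2l (0.47) and Ndufb9 (0.41) rose by less than 2-fold. Cox6b2, a testis form of a cytochrome oxidase subunit, was the largest rise (1.67), with overlapping groups, and did not pass without the block (adjusted p = 0.24), nor on a dimmer probe set (-0.57). The count of 29 was 19 without TSA 1 and 19 without the filter, and Sdha lost its call without that array (adjusted p = 0.059). In the citrate cycle 3 of 18 fell (16.7%, near the 14.1% over all genes) and 0 rose (median -0.28). The genes that fell were Suclg2 (-1.11), Sdha and Dlst (-0.57). Suclg2 did not pass without the filter (adjusted p = 0.052), nor Dlst (0.0581), and Dlst also not without untreated 1, AzaC 1, AzaC 2, TSA 2 or AzaC/TSA 1. Of 26 genes of glycolysis and the response to hypoxia 10 fell and 2 rose (median -0.28), and without the filter 6 fell. Ldha, lactate dehydrogenase, went from 5551, 6464, 6217 and 6371 to 1204, 2549, 1729.6 and 2309 (log2 difference -1.71, SE 0.16, adjusted p = 3.57e-05), and Tpi1 from 2030.1, 2439, 2358 and 3586 to 923, 1266, 1011 and 1389 (log2 difference -1.17, SE 0.13, adjusted p = 9.51e-05). Neither overlapped between the groups. The phosphofructokinase Pfkp rose (at least 2.02). Pgk1 (-0.89) and Pkm (-0.77) fell by less than 2-fold. In fatty acid synthesis 3 of 10 fell, the desaturase Fads1 (-0.90), Acly, which supplies acetyl-CoA (-0.71), and the elongase Elovl6 (-1.01), and 2 rose, the elongase Elovl5 (0.82) and the acyl-CoA ligase Acsl4 (1.04). Elovl6 did not pass without the filter (adjusted p = 0.0759).

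RNA splicing factors fell in 23 of 48 tested cases and rose in 0 (median -0.56), with 12 of the calls under 2-fold. Hnrnph1, an RNA-binding regulator of splice site choice, had 964, 1253, 844 and 1042 without TSA and 241, 204, 214 and 209 with it (log2 difference -2.23, SE 0.16, adjusted p = 5.5e-06). Srsf2, of the serine and arginine rich family, gave 2234, 3278, 2667 and 2707 without TSA and 785, 882, 774 and 769.6 with it (log2 difference -1.75, SE 0.14, adjusted p = 8.99e-06). In both the 4 TSA arrays lay close together and far below the others. U2af2, which recognises the end of the intron, fell by a steady amount in experiment 1 (-1.04) and experiment 2 (-1.04). The moderate falls included Hnrnpm (-0.89), Hnrnpd (-0.78), Hnrnpa2b1 (-0.67) and Sf3b2 (-0.61). Nuclear pore and import genes fell in 11 of 23 cases and rose in 0 (median -0.56): the importin Kpna2 went from 640.3, 1302, 641 and 1239.9 to 136, 196, 193 and 353 (log2 difference -2.13, SE 0.19, adjusted p = 2.02e-05), and Ran, the small GTPase of the pathway, fell by less than 2-fold (-0.86), as did Kpnb1 (-0.85).

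Genes that build ribosomes fell in 10 of 35 cases and rose in 2 (median -0.43), and without the block 6 fell. The genes that rose were Rrp1 (0.78) and Imp3 (0.49). Nop56, a core protein of the box C/D particles that modify ribosomal RNA, had 423, 1009.9, 551 and 1207 without TSA and 84.9, 122, 95.7 and 172 with it (log2 difference -2.68, SE 0.18, adjusted p = 3.02e-06), and Npm1, nucleophosmin, had 3078, 6293, 3767 and 5337 without TSA and 1350.4, 1756, 1616 and 1878 with it (log2 difference -1.44, SE 0.15, adjusted p = 5.66e-05). In both, experiment 2 was brighter without TSA, and the groups did not overlap. The ribosomal proteins themselves held few calls: of 27 tested 2 were lower, Rps19 (-0.73) and Rpl10a (-0.46), and 1 higher, Rps10 (0.42), with a median of -0.10. Each of these 3 calls was lost when single arrays were left out: Rps19 for any but untreated 1 and AzaC 2, Rpl10a for untreated 2, AzaC 2, TSA 1, TSA 2 or AzaC/TSA 2, and Rps10 for any but AzaC 2 and AzaC/TSA 2 (adjusted p up to 0.254, 0.111 and 0.188 over all alternatives). Of 48 translation factors 6 fell (12.5%) and 3 rose (6.25%), with a median of -0.09, where 14.1% of all genes fell and 14% rose. The initiation factor Eif4g2 went from 633, 483, 549.8 and 375 to 165, 79.2, 254 and 128 (log2 difference -1.80, SE 0.23, adjusted p = 0.000246), and the elongation factor Eef2 (0.55), Eif2a (0.62) and the poly(A)-binding protein Pabpc1 (0.82) rose, Pabpc1 not without the filter (adjusted p = 0.0592). In the list of amino acid supply and tRNA synthetases 10 of 28 fell and 2 rose (median -0.37), with the folate enzymes Mthfd2 (-2.37) and Shmt1 (-2.11) lowest and the synthetases Rars (0.87) and Sars (0.50) higher. Proteasome genes moved both ways, with 9 of 41 higher and 4 lower (median -0.09) and 11 of the 13 calls under 2-fold. The activator Psme4 rose (1.48), the core subunits Psmb1 (0.68) and Psmb2 (0.68) rose by less than 2-fold, and Psmb10, an immunoproteasome subunit, fell (-1.61), as did Psmg3, an assembly chaperone (-0.97). A dimmer Psmg3 probe set did not pass (-0.08, adjusted p = 0.856).

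The cell surface and the cytoskeleton changed in part. Of 43 genes of the extracellular matrix and integrins 12 rose and 5 fell (median 0.48), without the block 6 rose, and without the filter 2. Mfge8, a secreted bridge to integrins, had 1437, 1649, 1646 and 1124 without TSA and 3415, 3552, 3533 and 2909 with it (log2 difference 1.21, SE 0.15, adjusted p = 0.000163), and the protease inhibitor Timp1 rose from 159, 201, 137 and 167 to 795, 1971, 667 and 413 (log2 difference 2.30, SE 0.30, adjusted p = 0.000283). TSA 2 was the highest Timp1 array by far. Bcan, a proteoglycan of brain matrix, fell from 3623, 2525, 3906 and 1784 to 659, 368, 1239.6 and 701 (log2 difference -2.06, SE 0.22, adjusted p = 6.69e-05). Sparcl1, Gpc1 (-0.65), Cd81 (-0.49) and the collagen chaperone Serpinh1 (-0.58) were the other members that fell. Among actin regulators and annexins 14 of 45 rose and 4 fell (median 0.27), without the block 9 rose and without the filter 5, with S100a10, the partner of Anxa2, at 1.62 on its brighter probe set and not past on the other (-0.24), vinculin, Vcl, at 1.12 and Actn4 at 1.21. Marcksl1 (-1.51), Tpm4 (-0.88), cofilin, Cfl1 (-0.84), and Rdx (-0.61) fell. Vesicle traffic genes were higher in 20 of 123 cases (16.3%, near the 14% over all genes) and lower in 8 (median 0.10), and higher in 13 without TSA 2 or without AzaC/TSA 1, with 20 of the 28 calls under 2-fold. Clathrin light chains Clta (1.02) and Cltb (0.95) and the heavy chain Cltc (0.78) rose, and the small GTPases Rab31 (-1.53) and Rab34 (-1.68) fell.

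In the MHC class I list 6 of 15 rose and 1 fell (median 0.33), with the heavy chains H2-K1 (1.49) and H2-D1 (2.24) and their partner B2m (0.93) higher. H2-K1 and H2-D1 are close relatives whose probe sets can cross-hybridise, and H2-D1 did not pass without the filter (adjusted p = 0.0611). A dimmer H2-K1 probe set, not of the kind marked for cross-hybridisation, did not pass (0.06, adjusted p = 0.933). The gene that fell was Psmb10. Of 12 interferon response genes 1 rose, the receptor chain Ifnar1 (0.89), and 1 fell, the GTPase Gbp3 (-0.87), neither past without the filter (adjusted p = 0.0535 and 0.0962), and Gbp3 also not without untreated 2, AzaC 2, TSA 1, TSA 2 or AzaC/TSA 2. Of 24 apoptosis genes, the Bcl2 family included, 4 rose (16.7%) and 3 fell (12.5%), with a median of 0.10. These shares are near the 14% and 14.1% over all genes. The pro-death Bcl2l11 (1.11), the adaptor Tradd (1.30), Dffa (1.40) and Pdcd4 were higher. The adaptor Fadd (-1.19), Bak1 (-0.68) and Cycs were lower. Dffa did not pass without the filter (adjusted p = 0.0992). Bcl2, the gene of which the embryos carried a transgene, gave 217, 108, 99.0 and 126 without TSA and 164, 151, 161 and 264 with it and did not pass (log2 difference 0.46, SE 0.30, adjusted p = 0.294). Whether its probe set also detects the transgene is not given in the sources used here. It passed without untreated 1 (0.81, adjusted p = 0.0455). Of 20 imprinted genes 5 were higher, Igf2, Igf2r (0.82), Dlk1 (1.06), Cdkn1c and Dcn, and 3 lower, Mest (-1.09), Gnas (-0.72) and Cd81. Igf2r lost its call without TSA 1 (adjusted p = 0.0543) and without the block (0.0808). In growth factor signalling 5 of 32 were higher (15.6%) and 4 lower (12.5%), near the 14% and 14.1% over all genes. The receptors Igf1r (1.07) and Erbb3 (at least 1.97) were higher, and the kinase Akt1 (-1.16) and the binding protein Igfbp4 (-2.19) lower. The Igfbp4 groups overlapped, with untreated 2 (7.5) and TSA 2 (6.4) both under the floor. Its other probe set did not pass (-0.55, adjusted p = 0.389). In the Notch, Wnt, hedgehog and BMP list 4 of 45 were higher (8.89%) and 5 lower (11.1%). Fst, an inhibitor of activins (at least 1.16), and Numb, an inhibitor of Notch (1.03), were higher. Lfng, which modifies Notch (-1.85 or lower), the ligand Bmp7 (-1.94 or lower) and Smo, the hedgehog transducer (-1.45), were lower. Without the filter Bmp7 (adjusted p = 0.0773) and Smo (0.0622) did not pass. Of 5 polyamine genes Sat1 and Oaz2 (0.97) rose and the synthase Srm fell (2-fold), and of 8 histone acetyltransferases and acetyl-lysine readers Hat1 (-0.53) and Brd2 (-0.70) fell, Hat1 not without AzaC 2 or TSA 2, and Brd2 not without any 1 array other than untreated 2 and TSA 2 (adjusted p up to 0.141 and 0.111 over all alternatives). Among 11 Hox genes, and among 6 of the germ line, limma called 0, and 0 had an unadjusted p under 0.05.

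Pooling over AzaC averages 2 TSA differences that share no array, TSA minus untreated and AzaC/TSA minus AzaC. Across the 6011 genes, which are not independent replicates and share the 2 experiments, these correlated with Pearson's r = 0.774 and Spearman's rho = 0.695, and 76% had the same sign. The AzaC by TSA term, which tests whether they differ, called 0 of 7987 probe sets, with 258 (3.23%) at an unadjusted p under 0.05, and 1 without untreated 1. With 2 arrays per group this does not show that they are alike: the term of smallest p, -4.87 for Cd4, a T cell coreceptor, had an adjusted p of 0.27. Its signals were 18.1 and 20.2 untreated, 107.8 and 93.1 with AzaC, 96.9 and 143.3 with TSA, and 18.9 and 14.5 with both. The gene was thus at or near the floor in untreated and doubly treated cells and above it with either compound alone. Reg2 and Ppfibp2 were next, with an adjusted p of 1 each.

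**Figure D4:**
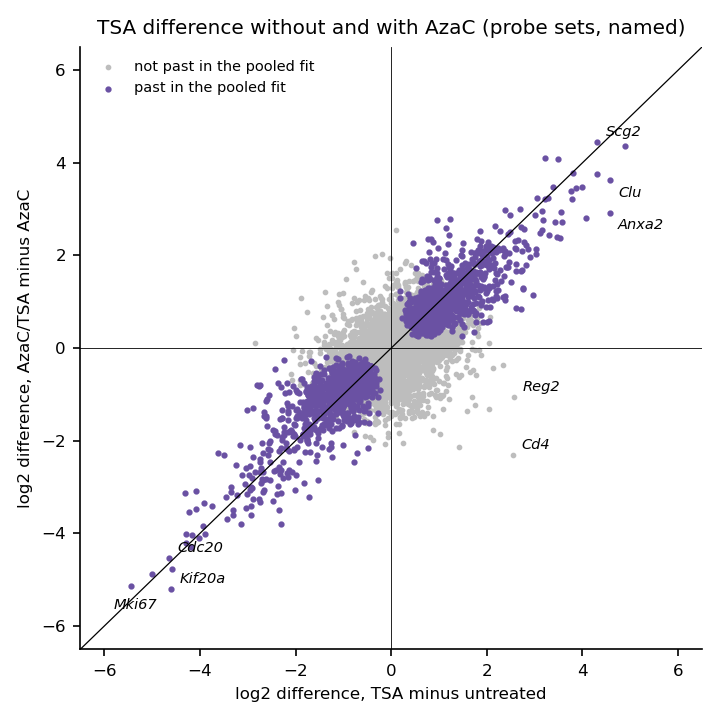
Log2 difference TSA minus untreated (horizontal axis) against AzaC/TSA minus AzaC (vertical axis), 1 point per named probe set, purple where past an adjusted p of 0.05 in the pooled comparison; the line marks equal values. Mki67 and Scg2 lie at opposite ends near the line, and Cd4 (2.55 and -2.32) and Reg2 (2.57 and -1.06) far from it.

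The experiments were also compared. Within experiment 1 limma called 1262 probe sets (15.8%) and within experiment 2 1310 (16.4%). The first count was 277 without TSA 1, 316 without AzaC/TSA 1, 485 without AzaC 1 and 534 without untreated 1, and the second 507 without TSA 2, 516 without untreated 2 and 720 without AzaC/TSA 2. Across genes the differences of the experiments correlated with r = 0.679 and rho = 0.600, and 71.3% had the same sign. The TSA by experiment term called 6 probe sets (0.0751%), with 810 (10.1%) at an unadjusted p under 0.05. The 6 became 0 without TSA 1 or without AzaC/TSA 1, 1 without TSA 2 or without AzaC/TSA 2, and 3 without untreated 1 or without untreated 2. A2m, the protease inhibitor alpha-2-macroglobulin, had 464.7 and 426.2 without TSA and 1548.0 and 1633 with it in experiment 1, and 468.1 and 506 without and 183.1 and 158.1 with it in experiment 2. Its log2 difference was 1.84 in experiment 1 and -1.52 in experiment 2 (adjusted p of the interaction = 0.00399), and arrays with and without AzaC lay close together. Myo10, a filopodial myosin, crossed in the same way (1.50 and -1.30 on the log2 scale, adjusted p = 0.0106). For both genes the pooled difference is near 0 (0.16 and 0.10) and describes neither experiment. The brain metallothionein Mt3 had differences of 0.69 in experiment 1 and 3.19 in experiment 2 (0.00937), the kinase anchor Akap12 of 1.57 and 5.43 (0.0106), a probe set with no gene name of 4.15 and 8.61 (0.0106), and Ccnd1 of -2.80 and -0.65 (0.0441). These 4 had the same sign in both experiments.

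**Figure D5:**
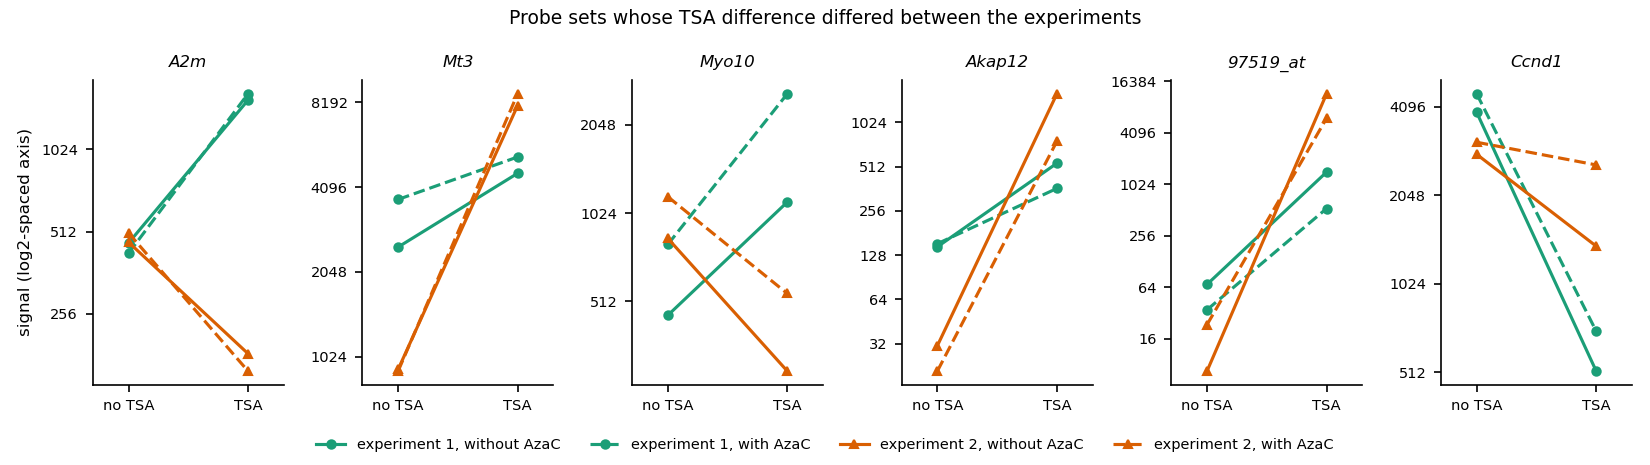
Signal (vertical axis, log2-spaced) without and with TSA for the 6 probe sets whose TSA difference differed between the experiments; green circles are experiment 1, orange triangles experiment 2, solid lines without AzaC and dashed lines with it. The lines of A2m and Myo10 cross, rising in experiment 1 and falling in experiment 2; those of the other 4 run the same way with different slopes.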

How the data were processed

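Arrays of 12488 probe sets measured RNA of 8 neurosphere cultures. The deposited values are signal intensities, 1 per probe set and array, which had the same trimmed mean on every array; no source used here names the array software, its settings or any scaling. Values under 20 (10% of the trimmed mean) were raised to it, log2 of the deposited intensity was taken, and 66 control probe sets were left out. Of the rest, 7987 (64.3%) reached 50 (25% of the trimmed mean) on at least 2 of 8 arrays and were tested in limma 3.58.1 (R 4.3.3) with TSA, AzaC and experiment as terms, eBayes with an intensity trend, and Benjamini-Hochberg adjustment over all of them at 0.05. Symbols came from the platform annotation: 10855 probe sets had 1 symbol, 396 several and 1237 none. A gene was read on its probe set of highest mean.

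Experiment numbers come from the sample titles, and the deviations of same-numbered arrays correlated at 0.203 to 0.411, so the number was kept as a block. Precision is limited by how few arrays there are, and the standard error had a median of 0.244, a 95% half-width of 0.536 on the log2 scale. Named genes were the 8 largest changes and the 8 of smallest p under 2-fold each way, up to 4 per list by p, a few fixed genes and the smallest p of each interaction. Other list members named were chosen after their values were seen. Members and lists were chosen with earlier results of these data known. Alternatives changed scaling, floor, filter, trend, block and the arrays included. The pooled fit was tested on simulated data, with 200 of 7987 probe sets changed in each of 10 runs. Of true log2 changes of 0.5 it found 6.6%, of 1 51.8%, of 2 92.2% and of 4 98.6%. Of its calls 4.3% were false. Far fewer probe sets changed there than passed here, which affects the adjustment, so these shares do not carry over directly. H1f0 was not analysed here.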

Additional observations from a re-analysis of the deposited data

Results flagged for a closer look

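In groups of 4 arrays, 1 array stood far from the other 3 in the following genes, by a gap beyond Dixon's 95% critical value for 4 samples, a criterion that chance meets in about 1 in 20 groups. Values are signals, and any under 20 were raised to 20 before the gap was taken. Without TSA these were Scg2 in untreated 1 (24.3), Rnase4 in AzaC 1 (29.7) and Dcn in AzaC 2 (34.7), each with the other 3 arrays at the floor. Further from the floor were Chga (181.6), Sparcl1 (904.0), Pabpc1 (6770.1) and Eef1d (1775.9) in AzaC 2, and Macroh2a1 (537.7), Prdx2 (4526.7) and Igf1r (263.5) in untreated 2. With TSA, Top2a in AzaC/TSA 2 (23.9), Aurkb (25.2) and Lfng (37.7) in AzaC/TSA 1 and Myb in TSA 1 (22.5) were single arrays above the floor. Sirt2 (390.6), H2ax (244.0), Psmc3 (718.7) and Bcl2 (264.3) stood apart in AzaC/TSA 2, Eif1b (798.5) in AzaC/TSA 1, and Atp5o (1311.3), Srsf2 (881.5) and Gsn (93.9) in TSA 2.

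The TSA difference itself differed between the experiments in 6 probe sets by the limma interaction term. Experiment 2 minus experiment 1 was 4.46 for a probe set with no gene name, 3.87 for Akap12, 2.51 for Mt3, 2.15 for Ccnd1, -2.80 for Myo10 and -3.35 for A2m, all on the log2 scale.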

How the results depend on the processing

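Of 240 named genes, 191 passed, and 141 of these passed in the same direction in every alternative run for them, 50 lost the call in at least 1 and 0 reversed. The median difference of all probe sets was -0.032, and -0.057 to 0 over all alternatives. With no filter, which adds dim probe sets to the test, the pooled count of 2082 was 1279 (594 higher, 685 lower, 585 under 2-fold), TSA against untreated 147, AzaC/TSA against AzaC 100, experiment 1 392, experiment 2 436 and TSA by experiment 1. List counts with no filter were, of genes higher, 6 for G1 control, 5 for actin regulators, 2 for extracellular matrix, 6 for glutathione, 8 for immediate early genes and 5 for synapse, and, of genes lower, 6 for glycolysis and 19 for the respiratory chain. Without the intensity trend the pooled count under 2-fold was 666, TSA against untreated 474, AzaC/TSA against AzaC 280, experiment 1 757, experiment 2 806 and TSA by experiment 0. With no replicate block, that is without the pairing by experiment, the pooled counts were 677 higher and 532 under 2-fold, TSA against untreated 401, AzaC/TSA against AzaC 223, actin regulators 9, extracellular matrix 6, immediate early genes 8 and ribosome biogenesis 6. The causes of the changes without trend or block were not tested.

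Leaving out 1 array at a time, so that fewer arrays were tested, gave 602 to 733 pooled calls under 2-fold, 188 to 852 for TSA against untreated, 186 to 814 for AzaC/TSA against AzaC, 0 to 1 for TSA by AzaC, 0 to 7 for TSA by experiment, 277 to 1259 in experiment 1, 507 to 1181 in experiment 2, 19 to 28 for the respiratory chain and 13 to 18 for vesicle traffic. Differences that did not pass changed sign in 8 genes without single arrays: A2m and Myo10 ranged over -0.29 to 0.62 and -0.35 to 0.54 (below 0 without any 1 array of experiment 1), Cd4 over -0.61 to 0.80 (below 0 without any 1 untreated or TSA array), Gfap over -0.03 to 0.41 and Sox2 over -0.24 to 0.12 (crossing 0 without untreated 2 or TSA 2), Mbp over -0.53 to 0.01 (above 0 without untreated 1), Ppfibp2 over -0.92 to 0.08 (above 0 without AzaC/TSA 2) and Slc2a1 over -0.29 to 0.31. Slc2a1 was also 0.03 with quantile normalization, 0.00 with median centring, 0.02 with a floor of 20% and 0.01 with an offset in place of the floor. Signals near the floor limit folds to bounds, and 898 of 6011 genes had such an array.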
